A study of Mus musculus with 24 samples.

Results

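Round spermatids and pachytene/diplotene spermatocytes of Ago413-/- males were compared by bulk RNA-seq, to describe how germ cell transcripts change from meiosis to the haploid phase when the targeted Argonaute genes are lost. The comparison used 7 of the 24 libraries, 3 from null spermatocytes (SP rep1 to rep3) and 4 from null round spermatids (RS rep1 to rep4), numbered as in the labels, and it covered the 19001 of 55536 genes with at least 10 counts in 3 or more of these 7. All 7 libraries came from mice homozygous for a germline deletion that takes out Ago1 and truncates its neighbors Ago3 and Ago4, on the C57BL/6J background and 10 to 15 weeks old. The deletion is present in every cell of the animal, so somatic cells of the testis carry it too. Testes of 2 to 5 mice were pooled for a preparation, cells were sedimented through an albumin gradient, and fractions judged by microscopy and immunofluorescence to be above 70% pure were combined. The study's methods give a lower range of purity for spermatocyte than for round spermatid fractions. Wild-type libraries (Ago413+/+, same background and ages, 4 from spermatocytes and 3 from round spermatids after those labelled outliers were left out) served as the reference for the same transition. The null libraries held 19022921 to 21902306 counts in spermatocytes and 18522612 to 25887128 counts in round spermatids, and 3 counts corresponded to 0.116 to 0.162 CPM, the unit of level used here (counts relative to the scaled library total).

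Pachytene and diplotene spermatocytes carry out homologous recombination within the synaptonemal complex and silence the X and Y chromosomes. After the meiotic divisions, haploid round spermatids build the acrosome and the tail while they still transcribe their genome, and they store messages for the proteins that later replace histones with transition proteins and protamines. Much of what a spermatid needs is already transcribed in late spermatocytes, and many of these transcripts stay untranslated for days. Argonaute proteins load small RNAs and repress complementary transcripts. In mouse spermatocytes AGO4 is also known from the nucleus, on the silenced sex chromosomes.

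The targeted genes were examined first. Ago1 had 0 counts in all 7 libraries. Reads assigned to Ago3, which keeps part of its sequence, gave 39.5, 86.5 and 67.6 CPM in SP rep1, SP rep2 and SP rep3 and 15.9, 16, 46.7 and 40.1 CPM in RS rep1 to rep4. RS rep3 and SP rep1 were close to each other and the groups overlapped, and the log2 fold change (round spermatids over spermatocytes) of -1.12 (SE 0.39, edgeR adjusted p = 0.063) missed the threshold. It was called by DESeq2 (adjusted p = 0.018), when scaled by library totals alone (-1.32) and without RS rep3 or without SP rep1, and the edgeR adjusted p was up to 0.24 over the omissions. With spermatocyte and round spermatid libraries of consecutive numbers paired as blocks, it was -0.97 (edgeR adjusted p = 0.00071). Ago4 had 12.3 ± 3.32 CPM (SD, n = 3) in spermatocytes, against 10.9 ± 1.75 (SD, n = 4) after meiosis (edgeR adjusted p = 0.577). Ago2, the Argonaute left intact, had 48 to 124 counts a library and no detectable difference (log2 fold change -0.25, SE 0.32, edgeR adjusted p = 0.599).

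Marker genes showed that the spermatocyte fractions also held spermatid transcripts, to different extents. Sycp3 (ENSMUSG00000020059, chromosome 10, 88459569 to 88473236 on GRCm38), a lateral element protein of the synaptonemal complex, had 53, 74.1 and 67.2 CPM in SP rep1 to rep3 and 23.3, 19.2, 35.4 and 43.5 CPM in RS rep1 to rep4. All 3 spermatocyte libraries lay above all 4 round spermatid libraries, and RS rep4 was the nearest to them. The spermatid acrosomal gene Acrv1 had 292, 220.3 and 251 CPM in SP rep1 to rep3 and 265, 278, 235 and 269 CPM in RS rep1 to rep4, with complete overlap of the groups (log2 fold change 0.04, SE 0.12, edgeR adjusted p = 0.84). Of 12 spermatocyte markers 3 fell and none rose (5 fell with the blocks or with library totals alone), of 12 round spermatid markers 1 rose and none fell, and of 10 elongating spermatid markers all 10 rose, where 13.4% of all tested genes rose and 6.33% fell. Of the spermatocyte markers 9 were not called and 4, Syce3, Dmc1, Tex101 and Hist1h1t, had log2 fold changes above 0. Defining transcripts of spermatids were present in every spermatocyte library. In bulk samples, fewer cells of a type and less RNA per cell cannot be told apart.

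The 7 libraries lay along a single main axis. The first principal component carried 62.2% of the variance and placed RS rep1 to rep4 at -64.8, -51.7, -34.5 and -17.2 and SP rep1 to rep3 at 24.1, 58.7 and 85.4. SP rep1 stood nearest the round spermatids. Its log2 CPM correlated with RS rep4 (r = 0.9791) as closely as with SP rep2 (r = 0.978) and SP rep3 (r = 0.9772). The summed level of the 10 elongating spermatid markers was 18340 CPM in SP rep1, 10340 CPM in SP rep2 and 6471 CPM in SP rep3, against 32670 to 57630 CPM in round spermatids. The 12 spermatocyte markers together gave 1332 to 1568 CPM in spermatocytes and 1099 to 1219 CPM in round spermatids, a narrow gap beside that of the spermatid messages. Results below within the null libraries are therefore given with the library whose omission changed them.

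**Figure D1:**
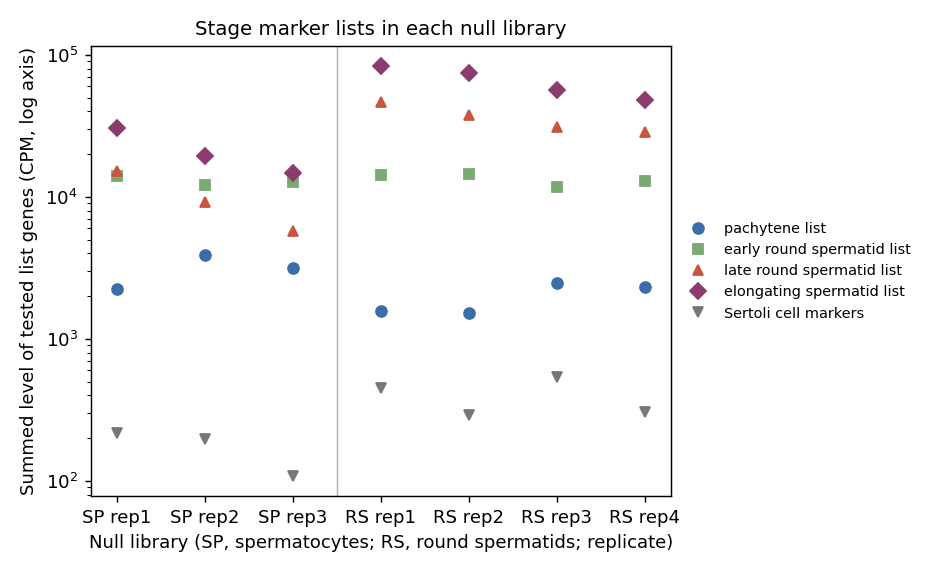
Summed level in CPM (log axis) of the tested genes of stage marker lists in each of the 7 null libraries, spermatocytes (SP) left and round spermatids (RS) right, with a point for each list and library. The late round spermatid list lies between 5716 and 15120 CPM in spermatocytes and between 28730 and 46460 CPM in round spermatids, while the early round spermatid list stays between 11710 and 14380 CPM in all 7.

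Between null spermatocytes and null round spermatids, 3749 of 19001 genes (19.7%) were called by edgeR at a Benjamini-Hochberg adjusted p under 0.05 with an absolute log2 fold change above 0.5. Of these, 2547 (13.4%) were higher and 1202 (6.33%) lower in round spermatids, the background against which the counts of list members stand. The 4 round spermatid libraries lay above all 3 spermatocyte libraries for 3514 genes (18.5%) and below all 3 for 2611 (13.7%), 6125 (32.2%) in all. The number called was 1612 without SP rep3, 2211 without SP rep2 and 2447 without RS rep2, and 4924 without SP rep1. Falls were the less stable part, with 188 called without SP rep3, 433 without RS rep2, 588 without RS rep1 and 628 without SP rep2, while rises numbered 1424 to 3185 over the 7 omissions (1424 without SP rep3, 1583 without SP rep2). The direction of the balance depended on scaling. With composition scaling (TMM) 67.9% of calls were higher in round spermatids, and with library totals alone 35.5% of 5526 calls were, and the median of all genes moved from -0.03 to -0.26 on the log2 scale.

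Spermatid messages were among the transcripts of the highest level per kilobase of exon in both fractions. Tnp1, transition protein 1, stood at 13035 CPM per kb in round spermatids and at 3182 CPM per kb in the mean of the spermatocytes, with 5274, 2793 and 1480.0 CPM per kb in SP rep1 to rep3. Without SP rep1 the highest was Ldhc, at 2537 CPM per kb against 2136 for Tnp1, and in SP rep3 Prm2 and Prm1 ranked 8 and 9, at 1019 and 1001 CPM per kb. Tnp2, Prm1 and Prm2, which encode the second transition protein and the protamines, and Ldhc, the germ cell lactate dehydrogenase, were also among the 10 highest in both. Ldhc had 3836, 4246 and 3769.8 CPM in SP rep1 to rep3 and 4624, 4168, 3822 and 3673 CPM in RS rep1 to rep4, a level that did not separate the groups (log2 fold change 0.04, SE 0.12, edgeR adjusted p = 0.816). Smcp, Odf1 and Dbil5 were among the 10 highest in round spermatids only, and Meig1, Ropn1l and Ybx2 in spermatocytes only. The last 3 were not called. In round spermatids Meig1 and Ybx2 had higher means (1341 against 1185 and 1328.5 against 1042 CPM per kb) and Ropn1l a slightly lower one (1077 against 1125 CPM per kb). Dbil5, a testis acyl-CoA binding protein, reached 2662 CPM per kb in round spermatids against 949 CPM per kb in spermatocytes.

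The 12 largest rises among genes of at least 20 CPM spanned low and high levels. Plekho2 (ENSMUSG00000050721, chromosome 9, 65552698 to 65580040), a pleckstrin homology domain protein, had 30.7, 17.7 and 8.72 CPM in SP rep1 to rep3 and 119.6, 119, 90.7 and 77.3 CPM in RS rep1 to rep4. No round spermatid library came near the spermatocytes, and the log2 ratio came to 2.42 (SE 0.36, edgeR adjusted p = 0.0024). Kif1a, a kinesin motor, had 5.64, 3.96 and 2.5 CPM in SP rep1 to rep3 and 17.5, 23.2, 21.4 and 18.2 CPM in RS rep1 to rep4 (log2 fold change 2.32, SE 0.26, edgeR adjusted p = 0.00155). Its round spermatid libraries differed less among themselves than those of Plekho2. Camsap3, which binds microtubule minus ends, rose by 2.40, and Ppm1l, a protein phosphatase, by 2.35 on the log2 scale. Mfsd9, Fam214b, Dscaml1, Tex46 and Fam131b rose by 2.35, 2.33, 2.28, 2.27 and 2.26. Oxct2a and Oxct2b, the spermatid enzymes of ketone body use, rose by 2.25 and 2.29, although 56.9% and 57.7% of the 31-base words of their transcripts are shared between them, so their separate values are uncertain. Car2, carbonic anhydrase 2, rose by 2.25 and missed the threshold without SP rep2 (edgeR adjusted p = 0.056). The other 11 kept their calls in all 7 fits that left out a library.

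The largest falls among genes of at least 20 CPM included genes of the chromosome axis, the kinetochore and the tail. Fsip2 (ENSMUSG00000075249, chromosome 2, 82943634 to 83008937), a large fibrous sheath protein, had 368, 362 and 519 CPM in SP rep1 to rep3 and 30.2, 54.4, 118 and 226 CPM in RS rep1 to rep4. Round spermatid libraries spanned more than 7-fold and RS rep4 was the nearest to the spermatocytes, and the log2 ratio came to -1.96 (SE 0.52, edgeR adjusted p = 0.0239). Sycp2 (ENSMUSG00000060445, chromosome 2, 178345293 to 178407685), which anchors the chromosome axis, had 101.9, 141 and 184 CPM in SP rep1 to rep3 and 11.6, 15, 44.4 and 75.9 CPM in RS rep1 to rep4. The same order of round spermatid libraries, RS rep1 lowest and RS rep4 highest, held for Sycp2 (log2 fold change -1.96, SE 0.53, edgeR adjusted p = 0.0261). Cenpf and Cenpe, kinetochore proteins, fell by 1.59 and 1.47, Smc4, a condensin subunit, by 1.5, and Ccdc39, which sets the ruler of the axoneme, by 1.54 on the log2 scale. Ccdc18, Zfp638, Pou5f2 and Zfp942 fell by 1.88, 1.55, 1.47 and 1.44. Catspere2, a sperm calcium channel gene, fell by 1.65 and Epc2, a subunit of a histone acetyltransferase complex, by 1.49, and these 2 were the ones among 12 to keep their calls in every fit that left out a library. The other 10 missed the threshold without SP rep2, SP rep3 or both, with edgeR adjusted p up to 0.15 over the omissions, and Cenpf and Cenpe also missed it with DESeq2 (adjusted p = 0.062 and 0.073).

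Marker lists that the study drew from wild-type single cells rose for late spermatid stages and not for the early one. Of the late round spermatid list, 64 of 64 tested genes rose, with a median log2 fold change of 1.73, and of the elongating spermatid list 59 of 62 rose, with a median of 1.49. Of all tested genes 13.4% rose, and their median over all was -0.03. None of 98 early round spermatid genes was called in either direction, and their median was 0.05, while 3 fell with library totals alone. With single libraries left out, the late round spermatid list kept at least 60 rises in each omission and the elongating list at least 53.

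Meiotic lists fell in part. Of 91 pachytene genes 27 fell (against 6.33% of all tested genes) and 1, the aromatase gene Cyp19a1, rose, with a median of -0.68. The number that fell was 2 without SP rep3, 4 without SP rep2, 11 without RS rep2 and 13 without RS rep1, and it was 53 without SP rep1 and 49 with consecutive library pairs as blocks. The median stayed between -0.85 and -0.47 over the omissions. Of 96 diplotene to second division genes 14 fell (14.6%, against 6.33%), with a median of -0.38. Of these genes 2 fell without SP rep3, 3 without SP rep2, 4 without RS rep2, 7 without RS rep1, 9 without RS rep3 and 46 without SP rep1. Of 93 leptotene/zygotene genes 21 fell (22.6%, against 6.33%) and 2 rose, both of the mitochondrial genome, with a median of -0.31, and 2 fell without SP rep3, 6 without SP rep2, 7 without RS rep2 and 11 without RS rep1. Of 95 spermatogonial genes 16 rose (16.8%, near the 13.4% of all tested genes) and 2 fell, with a median of 0.28, and 4 rose without SP rep3, 5 without SP rep2, 9 without RS rep2, 41 without SP rep1 and 26 with the blocks. With library totals alone, falls numbered 55 in the pachytene list, 67 in the diplotene to second division list and 38 in the leptotene/zygotene list, and 9 spermatogonial genes rose. DESeq2 called 46 pachytene genes lower. Among the spermatogonial genes that rose were Uchl1, a ubiquitin hydrolase (15.2 ± 6.42 against 28.9 ± 4.87 CPM), and Ftl1, ferritin light chain (8.22 ± 4.58 against 18.7 ± 2.5 CPM), whose sequence is shared with other copies. Both missed the threshold without SP rep2, SP rep3 or RS rep2 (edgeR adjusted p up to 0.11 and 0.095), and Uchl1 also with library totals alone. The summed level of the pachytene list, 2235 CPM in SP rep1 against 3862 CPM in SP rep2 and 3127 CPM in SP rep3, lay in SP rep1 below RS rep3 (2462 CPM) and RS rep4 (2315 CPM).

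**Figure D2:**
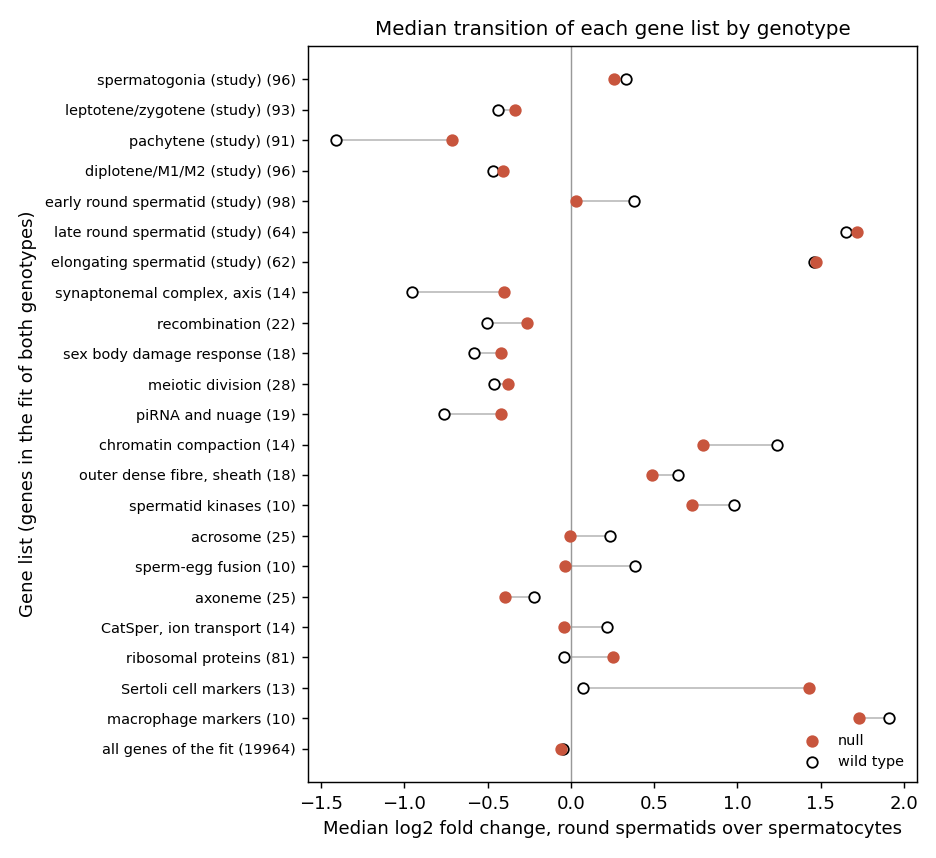
Median log2 fold change of round spermatids over spermatocytes for each gene list, filled points for null and open points for wild-type libraries, from the fit of both genotypes, with the number of genes in brackets. Late round and elongating spermatid lists lie near 1.72 and 1.47 in the null, and the pachytene list at -0.71 in the null and -1.41 in the wild type.

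Genes that compact the spermatid nucleus rose in 8 of 14 cases (57.1%, against 13.4% of all tested genes) and fell in 1 (7.14%, against 6.33%), with a median of 0.82. The promoters of 2 of them, Tnp1 and Hils1, and of Hspa1l and Spz1 described further on, carry a short motif, and they are shown because its share was higher among genes that rose than among genes that fell or were not called. The RefSeq sequences (GRCm38.p6) below give the last 120 bases before the start of transcription, 5′ to 3′ on the strand of the gene, with ACAATGG, a core motif of SOX family factors, or its reverse complement in capitals. Tnp1 spans chr1:73015900-73016019 on the minus strand, Hils1 chr11:94967473-94967592 on the plus strand, Hspa1l chr17:34972583-34972702 on the plus strand and Spz1 chr13:92576233-92576352 on the minus strand.
Tnp1: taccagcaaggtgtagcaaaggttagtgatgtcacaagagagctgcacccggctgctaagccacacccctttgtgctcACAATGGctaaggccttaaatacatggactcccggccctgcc
Hils1: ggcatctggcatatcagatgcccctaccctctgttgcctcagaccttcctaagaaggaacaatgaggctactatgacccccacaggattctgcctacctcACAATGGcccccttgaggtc
Hspa1l: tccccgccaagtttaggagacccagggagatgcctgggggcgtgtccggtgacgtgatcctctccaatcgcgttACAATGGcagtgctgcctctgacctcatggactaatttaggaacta
Spz1: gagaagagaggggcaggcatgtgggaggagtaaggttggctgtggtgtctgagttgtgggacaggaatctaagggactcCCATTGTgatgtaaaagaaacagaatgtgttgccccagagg
The motif began at -42 in Tnp1, -20 in Hils1, -46 in Hspa1l and, on the opposite strand, -41 in Spz1.

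Over the 250 bases before the start, ACAATGG on either strand stood in 5.31% of 1543 protein-coding genes that rose, 2.22% of 632 that fell and 2.41% of 9099 not called, against 2.79% of all 11274 genes matched to a promoter. In the nearest 60 bases the shares were 2.14% (33 genes), 0.633% (4 genes) and 0.528% (48 genes), against 0.754% of all. In the elongating spermatid list 6 of 50 promoters held it (12%), in the late round spermatid list 3 of 50 (6.0%), and in the pachytene list 0 of 61. Another 6 motifs were searched, also on both strands. TGACGTCA, the cyclic AMP response element, stood in 3.18% of promoters that rose, 3.32% of those that fell and 2.81% of those not called. GTTGCCA, the core of a site of RFX factors, stood in 4.21%, 6.49% and 4.60%, AACCGTT, a MYB site, in 0.648%, 1.58% and 1.12%, and CACGTG, an E-box, in 8.49%, 8.70% and 9.63%. TATAAA stood in 9.27%, 8.54% and 8.08%, and CCAAT in 38.4%, 44.8% and 40.0%. No motif contains another, though ends can overlap, as those of GTTGCCA and CCAAT do, and these shares are descriptions without a test.

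Transition proteins, which replace histones before protamines do, rose together. Tnp1 (ENSMUSG00000026182, chromosome 1, 73015074 to 73015909) had 2305, 1220.4 and 647 CPM in SP rep1 to rep3 and 7882, 5644, 4699 and 4559.7 CPM in RS rep1 to rep4, and Tnp2 (ENSMUSG00000043050, chromosome 16, 10787936 to 10788660) had 2149.9, 1343 and 676 CPM and 8298, 6313, 5415 and 4724 CPM in the same order. SP rep1 was the highest spermatocyte library for both and still lay below every round spermatid library, with log2 fold changes of 2.03 (SE 0.37, edgeR adjusted p = 0.0052) and 2.15 (SE 0.34, edgeR adjusted p = 0.00298). The protamines, the final packaging proteins of sperm DNA, followed. Prm1 (ENSMUSG00000022501, chromosome 16, 10796326 to 10805839) had 2467, 1163 and 571 CPM in SP rep1 to rep3 and 8727, 5874, 4841 and 4443 CPM in RS rep1 to rep4 (log2 fold change 2.09, SE 0.43, edgeR adjusted p = 0.00811), and its call ended without SP rep2 (edgeR adjusted p = 0.05). Prm2 (ENSMUSG00000038015, chromosome 16, 10791380 to 10796134), the most abundant in CPM, had 4216, 1851 and 911 CPM and 14687, 12659, 8618 and 7384 CPM (log2 fold change 2.22, SE 0.45, edgeR adjusted p = 0.00789). The groups did not overlap for either protamine, but SP rep1 held more than 4 times the Prm1 and Prm2 of SP rep3.

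The spermatid linker histone H1fnt rose by 1.69 (SE 0.23), from 369 ± 127 CPM (SD, n = 3) to 1193 ± 195 CPM (SD, n = 4), with an edgeR adjusted p of 0.00209. Hils1, another linker histone of spermatids, rose by 0.95 and Prm3, an acidic protein of the spermatid cytoplasm, by 1.51. Chd5, a chromatin remodeler that acts before histone removal, rose by 0.69 (SE 0.14, edgeR adjusted p = 0.00824), with 549, 765, 784 and 766 CPM in RS rep1 to rep4, where RS rep1 lay lowest, and it lost this call with library totals alone (log2 fold change 0.46). Hist1h2ba, a testis H2B gene whose 31-base words are shared with other histone genes, was near the limit of detection at 0.771, 1.75 and 1.17 CPM in SP rep1 to rep3 and 0.678, 0.471, 0.482 and 0.609 CPM in RS rep1 to rep4. It was the member that fell (edgeR adjusted p = 0.0497, 0.12 with the blocks and up to 0.19 over the omissions). Histone genes with transcripts lacking a poly(A) tail are only partly captured by the poly(A) selection used.

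**Figure D3:**
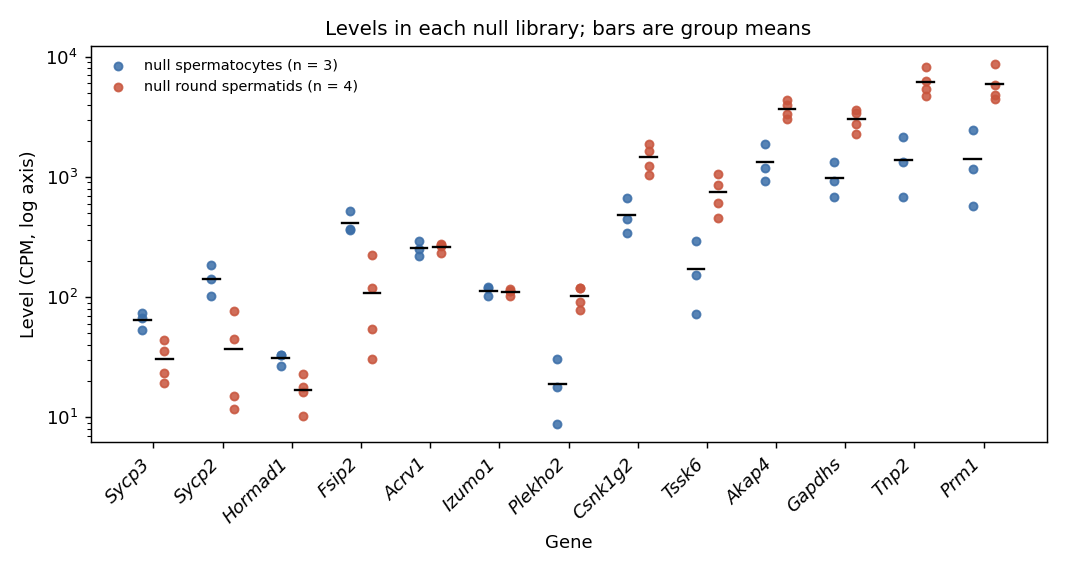
Level in CPM (log axis) of 13 genes in each null library, spermatocytes (n = 3) and round spermatids (n = 4), with bars at the group means. Sycp3, Sycp2, Hormad1 and Fsip2 lie lower in round spermatids, Acrv1 and Izumo1 overlap, and Plekho2, Csnk1g2, Tssk6, Akap4, Gapdhs, Tnp2 and Prm1 lie higher in every round spermatid library.

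Outer dense fiber and fibrous sheath genes, which build the accessory structures of the tail, rose in 9 of 18 cases (50%, against 13.4% of all tested genes). None fell, the median was 0.51, and 5 rose with library totals alone. Oaz3, a spermatid antizyme, had 1226, 731 and 534 CPM in SP rep1 to rep3 and 3836, 3296, 2474 and 1970.0 CPM in RS rep1 to rep4 (log2 fold change 1.80, SE 0.30, edgeR adjusted p = 0.00349). Akap4 (ENSMUSG00000050089, chromosome X, 7067519 to 7078609), the main structural protein of the sheath and an X-linked gene, had 1886, 1186 and 924 CPM and 4372, 4002, 3336 and 3057 CPM in the same order. Every round spermatid library lay above every spermatocyte library for both, and the log2 fold change of Akap4 was 1.47 (SE 0.23, edgeR adjusted p = 0.00278). Odf1 rose by 1.57, Smcp, a cysteine-rich protein of the mitochondrial capsule, by 1.51 and Odf2 by 0.97. Akap3, Ropn1, Fscb and Tekt5 rose by 0.60, 0.72, 0.63 and 0.69, and these smaller rises lost their calls with library totals alone. Ropn1 and Fscb also lost them without SP rep2 or SP rep3 (edgeR adjusted p up to 0.082 and 0.079). Cabyr, a calcium-binding sheath protein, had 447 ± 41.8 against 598 ± 56.1 CPM, a log2 value of 0.42 that fell short of the size required.

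Spermatid kinases rose in 5 of 10 cases (50%, against 13.4% of all tested genes), with a median of 0.75 and no fall (1 fell with the blocks and 2 with library totals alone). Tssk6, a testis-specific serine kinase needed for chromatin condensation, had 291, 151 and 71.9 CPM in SP rep1 to rep3 and 1066, 861, 610.1 and 457 CPM in RS rep1 to rep4. SP rep1 held 4 times the level of SP rep3, and the groups did not overlap (log2 fold change 2.13, SE 0.43, edgeR adjusted p = 0.0079). Csnk1g2, a casein kinase, rose from 485 ± 167 CPM (SD, n = 3) to 1456 ± 391 CPM (SD, n = 4), and Tssk3, Tssk2 and Camk4 rose by 1.43, 1.05 and 1.02 on the log2 scale. All 5 rises held in every omission, with the blocks and with library totals. Tssk1, the partner of Tssk2, had a log2 value of 0.48 and Stk33 of -0.31 (edgeR adjusted p = 0.0279 and 0.0982), and neither was called. Tssk1 was called without RS rep3, RS rep4 or SP rep1, and Stk33 with library totals alone.

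Of 17 germ cell isoforms, mostly of energy metabolism, 5 rose (29.4%, against 13.4% of all tested genes) and 1 fell (5.88%, against 6.33%), with a median of -0.15, whereas with library totals alone 4 rose and 5 fell. Gapdhs, the sperm glyceraldehyde phosphate dehydrogenase, had 1319, 927 and 684 CPM in SP rep1 to rep3 and 3397, 3589, 2779 and 2296 CPM in RS rep1 to rep4 (log2 fold change 1.63, SE 0.23, edgeR adjusted p = 0.00217). Hspa1l, a spermatid heat shock protein, had 604, 404 and 255 CPM and 1668, 1762, 1444 and 1317 CPM in the same order. Both genes separated the fractions without overlap, and Hspa1l rose by 1.88 (SE 0.25, edgeR adjusted p = 0.00208). Pgk2, the retroposed phosphoglycerate kinase, rose by 0.91 and lost the call without SP rep2 (edgeR adjusted p = 0.053). The germ cell aldolases Aldoart1 and Aldoart2 rose by 0.59 and 0.88, the former lost without SP rep2 or SP rep3 (edgeR adjusted p up to 0.065) and with library totals alone. Without SP rep2, 3 of the 17 rose. Utp14b, a retrogene for ribosome assembly, fell by 0.74 and lost the call without SP rep2, SP rep3 or any of RS rep1 to rep3 (edgeR adjusted p up to 0.13). The spermatocyte isoform Pdha2 stood at 192 ± 14.8 CPM in spermatocytes and 173 ± 10.1 CPM in round spermatids (edgeR adjusted p = 0.337).

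Of 15 widely used somatic counterparts of such isoforms, 6 rose (40%, against 13.4% of all tested genes) and none fell (median 0.77). The summed level of the 15 overlapped, with 1211 to 1436 CPM in spermatocytes and 1172 to 1372 CPM in round spermatids. The 6 that rose stayed at low levels, with Gapdh at 22.8 ± 8.2 CPM against 39.5 ± 2.7 CPM, Slc25a4 at 4.9 ± 1.99 against 14.6 ± 5.01 CPM and the X-linked Pgk1, whose sequence overlaps other copies, at 5.28 ± 1.78 against 11.7 ± 1.41 CPM. Of the 15, 3 rose without SP rep2, 3 without SP rep3, 9 with the blocks and 10 without SP rep1. Gapdh lost its call without RS rep2, SP rep2 or SP rep3 (edgeR adjusted p up to 0.09), while Pgk1 and Slc25a4 kept theirs in every omission. Cox7b at 1.52 ± 0.186 CPM and Cetn2 at 8.2 ± 0.838 CPM in round spermatids, both X-linked, lost theirs without SP rep2, SP rep3 or 2 or more of the round spermatid libraries (edgeR adjusted p up to 0.11 and 0.15), and Gapdh and Cetn2 also with library totals alone. Hspa1a, an inducible heat shock gene, had 0.662 ± 0.0809 CPM against 1.81 ± 0.39 CPM. Markers of Sertoli cells and macrophages rose in the same libraries, as given further on, and the part of somatic cells in these rises was not tested.

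Acrosomal genes were mostly at like levels in both fractions. Of 25, 4 rose and 1 fell (2 with the blocks), shares near the 13.4% and 6.33% of all tested genes, and the median was 0.02. Acr, the protease acrosin, had 233, 249 and 259 CPM in SP rep1 to rep3 and 209, 246, 239 and 247 CPM in RS rep1 to rep4, with overlap of the groups (log2 fold change -0.07, SE 0.11, edgeR adjusted p = 0.676). Actl9 and Actl7a, actin-like proteins beneath the acrosome, rose by 1.40 and 0.69, Spaca9 by 1.17 and Ccdc136 by 0.56. Pick1, which acts in vesicle traffic to the acrosome, fell from 27.1 ± 2.34 CPM (SD, n = 3) to 17.9 ± 0.631 CPM (SD, n = 4), by 0.59 on the log2 scale (edgeR adjusted p = 0.00947). Without SP rep3, Actl7a and Pick1 missed the threshold (edgeR adjusted p = 0.054 and 0.062), and with library totals alone, where Actl7a and Ccdc136 were lost, 2 of the list rose and 4 fell. Among 10 genes of sperm and egg fusion, 2 rose (20%, against 13.4% of all tested genes) and none fell. Izumo1 did not differ (113 ± 10.4 against 111 ± 5.75 CPM, edgeR adjusted p = 0.852), while Izumo2 and Llcfc1 rose by 0.73 and 0.71, both lost without SP rep2 or SP rep3 (edgeR adjusted p up to 0.067 and 0.12) and with library totals alone.

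The number of axoneme genes called depended on the fit. Ccdc39 was the 1 called of 25 (4%, where 6.33% of all tested genes fell), and it fell (265 ± 68.1 against 91.3 ± 54.1 CPM), with a list median of -0.37 and edgeR adjusted p up to 0.074 without SP rep2 or SP rep3. Of the 25, 12 fell with library totals alone, 7 without SP rep1, 5 with the blocks, 4 without RS rep4 and 3 with DESeq2. Of 14 genes of the CatSper calcium channel and of ion transport, 1 rose (7.14%, against 13.4% of all tested genes) and 3 fell (21.4%, against 6.33%). Atp1a4, the sperm sodium pump, rose from 628, 515 and 413 CPM in SP rep1 to rep3 to 1320.2, 1385, 1222 and 1141 CPM in RS rep1 to rep4. Its groups stood far apart relative to their spread (log2 fold change 1.29, SE 0.15, edgeR adjusted p = 0.00168). Catspere1, Catsperb and Slc9c1, the sperm sodium/proton exchanger, fell by 1.17, 0.86 and 0.82, and none of the 3 was called without SP rep2 or without SP rep3 (edgeR adjusted p up to 0.057, 0.11 and 0.066). Catsper1, the pore subunit, had 158 ± 5.91 CPM against 175 ± 8.63 CPM (edgeR adjusted p = 0.326). Reads of Catspere1 and Catspere2 are uncertain because part of their sequence is shared.

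Synaptonemal complex and chromosome axis genes fell in 6 of 14 cases (42.9%, against 6.33% of all tested genes) and rose in 1 (median -0.38). Falls numbered 1 without SP rep2 or without SP rep3, 2 without RS rep2 and 3 without RS rep1 or without RS rep3. Sycp3 fell by 1.09 (SE 0.25, edgeR adjusted p = 0.0132) and missed the threshold without SP rep2 (edgeR adjusted p = 0.062). Hormad1, an axis protein of the synapsis checkpoint, had 26.9, 33 and 32.8 CPM in SP rep1 to rep3 and 16.3, 10.3, 17.8 and 22.8 CPM in RS rep1 to rep4, without overlap (log2 fold change -0.88, SE 0.23, edgeR adjusted p = 0.0212). Smc1b, the meiotic cohesin subunit, had 263, 259.7 and 332 CPM and 48.8, 61.5, 131 and 218 CPM in the same order, with RS rep4 close to the spermatocytes (log2 fold change -1.31, SE 0.42, edgeR adjusted p = 0.0461, and 0.071 with DESeq2). Sycp1, the transverse filament, fell by 0.85 and 4930447C04Rik by 1.18, and Sycp1, 4930447C04Rik, Hormad1 and Smc1b each lost the call without SP rep3 among other omissions (edgeR adjusted p up to 0.13, 0.12, 0.077 and 0.13). Syce2, a central element gene that is also a member of the elongating spermatid list, went the other way. It had 121, 74.3 and 52.8 CPM in SP rep1 to rep3 and 355, 284, 209.6 and 183 CPM in RS rep1 to rep4, a rise of 1.64 (SE 0.30, edgeR adjusted p = 0.00503) that held in every omission. The cohesins Rec8 and Stag3 were not called (log2 fold change 0.05 and -0.18, edgeR adjusted p = 0.789 and 0.325).

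Recombination genes fell in 4 of 21 cases (19%, against 6.33% of all tested genes), with no rise and a median of -0.25, and in 6 with the blocks and 7 with library totals alone. Hfm1, the crossover helicase, had 15.1, 17.8 and 17.4 CPM in SP rep1 to rep3 and 6.88, 5.69, 10.1 and 12.78 CPM in RS rep1 to rep4 (log2 fold change -0.92, SE 0.25, edgeR adjusted p = 0.0255). Brca2, which loads recombinases, fell by 0.58, Cntd1, a crossover designation factor, by 0.66 and Tex15 by 1.41. Without SP rep3 none of the 4 was called, without SP rep2, RS rep1 or RS rep2 1 of them was, and Tex15 was also lost with DESeq2 (adjusted p = 0.076). Spo11, which makes the meiotic breaks, had a log2 value of -0.50 (SE 0.14, edgeR adjusted p = 0.0311), just short of the size required. It was called with the blocks (-0.55, edgeR adjusted p = 0.015), by DESeq2 (adjusted p = 0.016), with library totals alone and without RS rep1 or SP rep1. Of 18 genes of the damage response on the sex body 2 fell (11.1%, against 6.33% of all tested genes), Brca1 by 0.97 and Chek1 by 0.54 on the log2 scale (edgeR adjusted p up to 0.1 and 0.086 over the omissions). None of the 18 was called without SP rep3 or without RS rep2, while 4 fell with the blocks and 6 with library totals alone. Atr, the kinase of sex chromosome silencing, had 114, 229 and 183 CPM in SP rep1 to rep3 and 35.4, 40.4, 113 and 124 CPM in RS rep1 to rep4. RS rep3 and RS rep4 reached the level of SP rep1, and the fall was not called (log2 fold change -1.16, SE 0.42, edgeR adjusted p = 0.0701), whereas without RS rep4 or SP rep1, with library totals alone and with the blocks it was (log2 fold change -1.08 and edgeR adjusted p = 0.0031 with the blocks).

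Genes of the meiotic divisions fell in 5 of 28 cases (17.9%, against 6.33% of all tested genes), with no rise and a median of -0.35, and 11 fell without SP rep1, 7 with the blocks and 14 with library totals alone. Bub1 and Ttk, kinases of the spindle checkpoint, kept their calls in every omission. Bub1 had 116, 99.8 and 109 CPM in SP rep1 to rep3 and 66.2, 68.6, 70.5 and 80.7 CPM in RS rep1 to rep4 (log2 fold change -0.60, SE 0.12, edgeR adjusted p = 0.00645), and Ttk had 64.7, 81.7 and 70.9 CPM and 33.4, 32.9, 47.8 and 50.8 CPM (log2 fold change -0.81, SE 0.18, edgeR adjusted p = 0.0101). No round spermatid library reached the lowest spermatocyte library for these kinases. Sgo2a, protector of centromeric cohesion, Cks2 and Fbxo43 fell by 1.29, 0.95 and 1.24, and lost their calls without RS rep1, RS rep2, SP rep2 or SP rep3 (edgeR adjusted p up to 0.16, 0.18 and 0.17), Sgo2a also with DESeq2 (adjusted p = 0.073). Ccna1, the cyclin of the first division, and Hspa2, a chaperone of meiosis, were not called (209 ± 26.3 against 174 ± 5.84 CPM and 1509 ± 172 against 1248 ± 57 CPM, edgeR adjusted p = 0.116 and 0.101).

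Genes of piRNAs, the small RNAs of the germ line, and of the germ granule fell in 5 of 19 cases (26.3%, against 6.33% of all tested genes), with no rise and a median of -0.39. Ddx4, the germ granule helicase, had 574, 627 and 699 CPM in SP rep1 to rep3 and 328, 364, 476 and 525 CPM in RS rep1 to rep4, without overlap (log2 fold change -0.58, SE 0.17, edgeR adjusted p = 0.0319). Rnf17, a Tudor protein, fell by 0.63, Pld6, a mitochondrial nuclease, by 0.88, Henmt1, the piRNA methyltransferase, by 0.51 and Asz1 by 0.52. None of the 5 was called without SP rep2, without SP rep3 or without RS rep2, with edgeR adjusted p of 0.057 to 0.13, 0.061 to 0.12 and 0.058 to 0.09. Without RS rep1 1 gene of the list fell without SP rep1 9 did, with the blocks 7 and with library totals alone 8. Piwil1, which binds pachytene piRNAs, varied 3-fold among spermatocyte libraries (74.5, 235 and 150.1 CPM in SP rep1 to rep3, 60.2, 51.2, 129.9 and 106 CPM in RS rep1 to rep4) and was not called (log2 fold change -0.82, SE 0.38, edgeR adjusted p = 0.145, and -0.56, edgeR adjusted p = 0.0088 with the blocks), though it was called with them and without SP rep1. Mael was at like levels in both (1264 ± 49.2 and 1179 ± 79.9 CPM, edgeR adjusted p = 0.508).

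Among regulators of transcription, 3 of 20 rose (15.0%) and 1 fell (5.0%), near the 13.4% and 6.33% of all tested genes, while 2 fell with the blocks and 5 with library totals alone. The called members are given one by one and not as a change of the group. Spz1, a testis basic helix-loop-helix factor, had 1331, 792 and 665 CPM in SP rep1 to rep3 and 2642, 2295, 1869 and 1843 CPM in RS rep1 to rep4 (log2 fold change 1.22, SE 0.23, edgeR adjusted p = 0.00616). Fhl5, the spermatid coactivator of CREM, rose by 0.80 in every omission, and Stat4 by 0.54, lost without SP rep2 or SP rep3 (edgeR adjusted p up to 0.082) and with library totals alone. The Y-linked Zfy1, which shares sequence with other genes, fell by 0.81 and was lost without SP rep3 (edgeR adjusted p = 0.074). The regulators named for the motifs above were not called with the 7 libraries and composition scaling. Crem, of the cyclic AMP response element, had 289.8 ± 17.8 against 269 ± 23.4 CPM, Sox30, a SOX factor of spermatids, 148 ± 6.5 against 199 ± 29.3 CPM, Rfx2 353 ± 54.8 against 385 ± 38.7 CPM and Mybl1 45 ± 10.6 against 26 ± 11.1 CPM (edgeR adjusted p = 0.514, 0.0435, 0.54 and 0.0817). Sox30 had a log2 value of 0.43, under the size required, and was called without RS rep1. Mybl1 was called with the blocks (-0.65, edgeR adjusted p = 0.0053), by DESeq2 (adjusted p = 0.041), with library totals alone (-1.01) and without RS rep4 or SP rep1.

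In translational control, 1 of 17 genes rose (5.88%, against 13.4% of all tested genes) and 2 fell (11.8%, against 6.33%), while 5 fell with library totals alone and 1 with the blocks. Paip2, an inhibitor of poly(A)-binding protein, rose by 0.81, the germ cell poly(A)-binding protein Pabpc6 fell by 0.99, and Boll, an RNA-binding protein of meiosis, fell by 0.52. Each of the 3 lost its call without RS rep2, SP rep2 or SP rep3 (edgeR adjusted p up to 0.088, 0.17 and 0.066), and Boll also with the blocks, where its log2 fold change was -0.49. Among 12 genes of the Argonaute and microRNA machinery, 2 rose (16.7%, near the 13.4% of all tested genes) and none fell, and with the blocks 1 rose and 1 fell. Tnrc6b, the GW182 partner through which Argonautes silence targets, had 27.6, 25.9 and 23.5 CPM in SP rep1 to rep3 and 38.8, 46.4, 50.6 and 51.1 CPM in RS rep1 to rep4. The groups were clearly apart, and the rise of 0.87 (SE 0.14, edgeR adjusted p = 0.00305) held in every omission. Drosha, the nuclease of microRNA precursors, rose by 0.59 (SE 0.18, edgeR adjusted p = 0.0374) with RS rep1 inside the spermatocyte range, and lost the call without RS rep2, RS rep3, RS rep4, SP rep2 or SP rep3 (edgeR adjusted p up to 0.14) with the blocks (edgeR adjusted p = 0.059) and with library totals alone.

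Of 80 ribosomal protein genes 5 rose (6.25%, below the 13.4% of all tested genes) and none fell, with 71 log2 fold changes above 0 and a median of 0.28, which was 0.05 with library totals alone. Their summed level overlapped between the groups, with 9647 to 12120 CPM in spermatocytes and 11900.0 to 16890 CPM in round spermatids. Without SP rep2, SP rep3 or RS rep2 1 was called, without RS rep1 2, without RS rep4 14, without SP rep1 15 and with the blocks 10, and with library totals alone 2 were higher and 3 lower. Of 10 transcripts of the mitochondrial genome 3 rose (30%, against 13.4%), with a median of 0.62, and none did without SP rep2 or without SP rep3, 1 without RS rep1 or with library totals alone and 5 with the blocks. mt-Co1, cytochrome oxidase subunit 1, had 2961, 2001 and 2083 CPM in SP rep1 to rep3 and 5910.4, 3829.6, 3743 and 3710.1 CPM in RS rep1 to rep4, with RS rep1 far above the others (log2 fold change 0.87, SE 0.20, edgeR adjusted p = 0.0131, up to 0.072 over the omissions). Other annotated genes share 63.9% of its 31-base words.

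The X chromosome is silenced in pachytene spermatocytes and partly reactivated in round spermatids, so the X was set against the autosomes. X-linked genes took 0.965 ± 0.199% (SD, n = 3) of counts in null spermatocytes and 1.34 ± 0.0815% (SD, n = 4) in null round spermatids, higher in 4 of 4 round spermatid libraries, with a two-sided exact permutation p of 0.0571, the smallest these group sizes allow. Without X-linked families of 3 or more members the shares were 0.512% and 0.621% (exact permutation p = 0.171). Over 731 tested X-linked genes the median log2 fold change was 0.20 and over 18048 autosomal genes -0.04, a shift of 0.24. On the X, 154 genes rose (21.1%) and 22 fell (3.01%), and on the autosomes 2388 rose (13.2%) and 1164 fell (6.45%). The shift rested on 2 of the spermatocyte libraries. The mean log2 CPM of X-linked minus autosomal genes was -1.07 in SP rep1, as in RS rep1 to rep4 (-1.08, -1.10, -1.11 and -1.11), but -1.48 in both SP rep2 and SP rep3. The shift was 0.40 without SP rep1, where 30.1% of genes on the X rose and 16.6% on the autosomes. It was 0.16 without SP rep2, where the shares were 10.2% and 8.45%, and 0.17 without SP rep3, where they were 10.1% and 7.61%. X-linked falls numbered 1 without SP rep3, 5 without RS rep2, 7 without RS rep1, RS rep3 or SP rep1 and 38 without RS rep4. With the blocks 183 X-linked genes rose (25.0%) and 22 fell. With library totals alone 125 X-linked genes rose (17.1%) and 68 fell, and the shift was again 0.24.

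**Figure D4:**
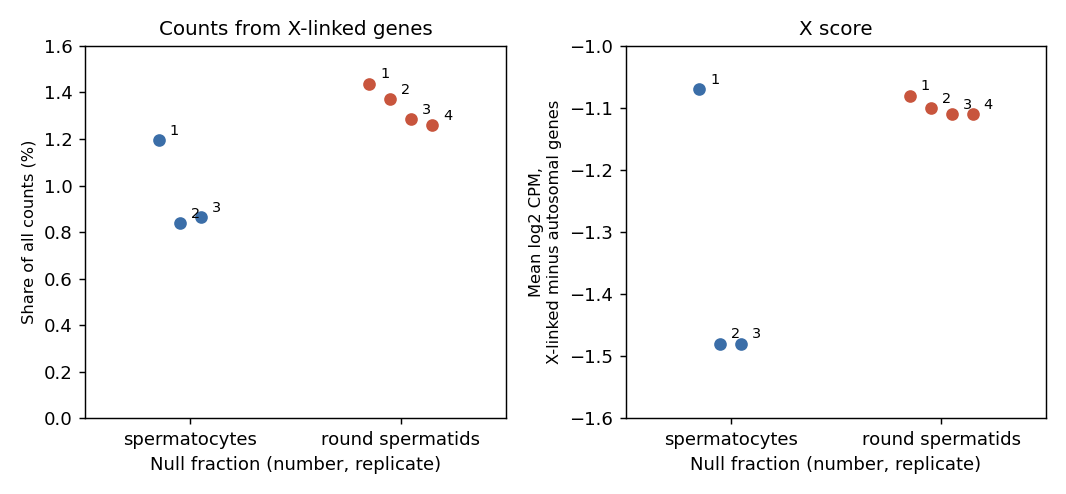
X-linked share of all counts in percent (left) and mean log2 CPM of X-linked minus autosomal genes (right) in each null library, numbered by replicate, for spermatocytes and round spermatids. SP rep1 has a share of 1.19%, near the 1.26 to 1.44% of round spermatids, and a difference of -1.07, level with the round spermatids.

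The 8 largest rises among X-linked genes included spermatid histones and 1 marker of another cell type. H2al1n, an X-linked H2A variant of spermatids, had 20.3, 10.9 and 6.26 CPM in SP rep1 to rep3 and 78.9, 56, 40.4 and 34.4 CPM in RS rep1 to rep4 (log2 fold change 2.07, SE 0.39, edgeR adjusted p = 0.00606), and its relative H2al1k rose by 1.96, both uncertain because of near-identical copies. 1700018G05Rik and Tex13c3 rose by 2.24 and 2.16, and 1700011M02Rik, Gm614 and Smim10l2a by 2.16, 1.97 and 1.97, of which the last 3 were lost without SP rep2 (edgeR adjusted p up to 0.12, 0.058 and 0.054 over the omissions). Other genes share 67.6% of the 31-base words of Gm614, 38.7% of Smim10l2a, 37.7% of 1700011M02Rik and 22.8% of Tex13c3, so these values are uncertain too. Alas2, the heme synthesis enzyme of red cell precursors, rose by 2.16. The X-linked falls with the largest size were 4932429P05Rik (35.6, 26.1 and 37.6 CPM in SP rep1 to rep3 and 8.58, 11.2, 15 and 22.4 CPM in RS rep1 to rep4), Gm7173, 4932411N23Rik, Map7d3, Zfp711, Tent5d, Fndc3c1 and 4930480E11Rik, from -1.22 to -0.71 on the log2 scale. All 8 lost their calls without SP rep3 (edgeR adjusted p up to 0.19 over the omissions). Of 204 tested Y-linked genes, mostly multicopy families, 1 rose (0.49%, against 13.2% of autosomal genes) and 15 fell (7.35%, near the 6.45% of autosomal genes). Their median was -0.15, and 30.9% of them had log2 fold changes above 0, against 47% of autosomal genes.

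Markers of Sertoli cells and macrophages rose with the round spermatid label, and those of other somatic cells rose in part. Of 12 Sertoli cell markers 10 rose (83.3%, against 13.4% of all tested genes) and none fell, with a median of 1.40. Their summed level was 108.4 to 217.5 CPM in spermatocytes and 292.6 to 535.7 CPM in round spermatids. Cst12, a Sertoli cystatin, had 15.2, 12.6 and 7.47 CPM in SP rep1 to rep3 and 47.3, 21.6, 36.8 and 22.9 CPM in RS rep1 to rep4 (log2 fold change 1.46, SE 0.32, edgeR adjusted p = 0.0102). Gata4, a somatic transcription factor, had 1.97, 2.26 and 0.889 CPM and 5.09, 4.38, 8.6 and 4.26 CPM in the same order. RS rep3 was highest for Gata4, and both genes separated the fractions in all omissions. Clu, Cst9, Aard, Wt1 and Sox9 rose by 0.99, 1.34, 1.80, 1.49 and 1.45, and all 5 lost their calls without SP rep2 (edgeR adjusted p up to 0.087, 0.084, 0.054, 0.081 and 0.1 over the omissions). Without SP rep2 or without SP rep3, 3 of the 12 were called, and without RS rep3 6 were. The part of somatic cells in the other results was not tested.

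Macrophage markers rose in 6 of 10 cases (60%, against 13.4% of all tested genes) with no fall, at summed levels of 12.04 to 24.9 CPM in spermatocytes and 37.24 to 69.16 CPM in round spermatids. Lyz2, lysozyme, had 0.193, 0.0472 and 0.0404 CPM in SP rep1 to rep3 and 3.39, 2.16, 2.65 and 2.93 CPM in RS rep1 to rep4, so that the spermatocyte libraries were near or below the level of 3 counts. Lyz2 passed the count filter through the round spermatid libraries only, so its place among the 6 is no separate support. Apoe had 13.2, 6.04 and 3.63 CPM and 45.1, 35.9, 23.5 and 17.9 CPM in the same order and lost its call without SP rep2 (edgeR adjusted p = 0.056). C1qa, C1qb and Csf1r, complement genes and the macrophage growth factor receptor, had means of 2.11 ± 0.322, 6.75 ± 1.98 and 2.77 ± 0.307 CPM in round spermatids against 0.205 ± 0.204, 1.35 ± 1.09 and 0.982 ± 0.33 CPM in spermatocytes, while Ptprc, the pan-leukocyte marker, did not differ (0.785 ± 0.184 against 0.859 ± 0.442 CPM, edgeR adjusted p = 0.869). Of 6 Leydig cell markers 1 rose (16.7%, near the 13.4% of all tested genes), Nr5a1, which Sertoli cells express too (1.75 ± 0.806 against 6.52 ± 2.34 CPM). Star, the Leydig cholesterol carrier, did not (2.37 ± 1.08 against 2.26 ± 0.578 CPM, edgeR adjusted p = 0.909), and the summed level of the Leydig list overlapped between the groups. Of 5 endothelial markers 2 rose (40%), Vwf and Cdh5. Of 5 listed erythroid markers 2 passed the count filter, and both rose. The globin gene Hbb-bs had 0, 0.0472 and 0 CPM in SP rep1 to rep3 and 0.63, 0.565, 0.965 and 0.996 CPM in RS rep1 to rep4. It passed the filter through the round spermatid libraries only, so its rise is given as values and not as separate support. Of 5 peritubular myoid markers 2 rose (40%), Myh11 (0.945 ± 0.318 against 3.48 ± 0.806 CPM) and Actg2 (198 ± 61 against 481 ± 94.1 CPM), the latter also a member of the late round spermatid list.

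The same transition was measured in the wild type, in libraries not shared with the null. In a fit of both genotypes with 19964 genes, 5507 genes (27.6%) were called between wild-type round spermatids and spermatocytes, 2476 higher (12.4%) and 3031 lower (15.2%), and 4034 (20.2%) between the null fractions. Across genes the log2 fold changes of the genotypes had a Pearson r of 0.719 and a Spearman rho of 0.687, where genes are not independent replicates. Of the null calls 67.7% were also called in the wild type, and of the wild-type calls 49.6% were called in the null. Of these 2731 shared calls 2730 had the same sign. The difference between the transitions, tested as an interaction, was called for 0 of 19964 genes by edgeR (1416 at an unadjusted p under 0.05) and for 0 by DESeq2 (1607 at an unadjusted p under 0.05).

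The gene lists are given side by side and without a test. Their values in this comparison were not repeated with libraries left out, and SP rep1 enters every null value. Genes of a list are not independent replicates, so counts of genes below do not measure how repeatable a difference is. The pachytene list had a median of -0.71 in the null and -1.41 in the wild type, where 79 of its genes fell, and the null change lay above the wild-type change for 83 of its 91 genes. Over all genes it lay above for 11090 of 19964. The piRNA list had medians of -0.42 and -0.76, the synaptonemal list -0.40 and -0.95, and the recombination list -0.26 and -0.51, although the median difference per gene was 0.19 for the synaptonemal list and 0.11 for the recombination list. Other meiotic lists were closer, with -0.38 and -0.46 for the meiotic divisions, -0.41 and -0.47 for diplotene to the second division and -0.34 and -0.44 for leptotene/zygotene. The late round spermatid list had 1.72 and 1.65 and the elongating list 1.47 and 1.46. The early round spermatid list had 0.03 in the null and 0.38 in the wild type, and the null change lay below the wild-type change for each of its 98 genes. Sertoli markers had medians of 1.43 in the null and 0.07 in the wild type, with the null change above the wild-type change for 13 of 13. Macrophage markers had 1.73 and 1.91 and peritubular myoid markers 0.695 and 0.857, so these lists rose in both genotypes. Leydig markers had 0.789 and -0.00777, endothelial markers 0.329 and 0.00737, and ribosomal protein genes 0.26 and -0.04. No gene of any list was called in the interaction.

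**Figure D5:**
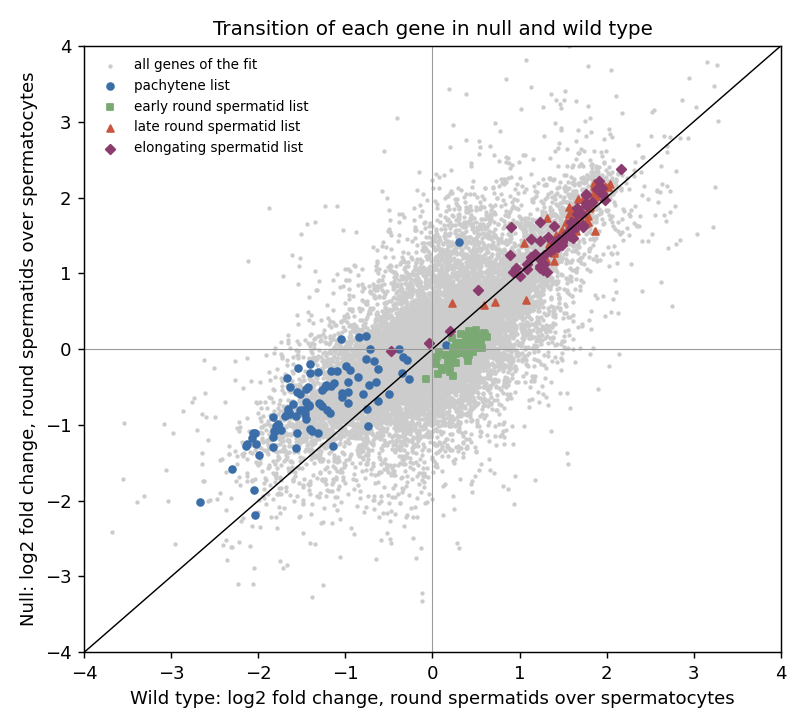
Log2 fold change of round spermatids over spermatocytes for each gene in the wild type (horizontal) and the null (vertical), with 4 stage marker lists in color and all other genes in gray; 9 genes lie outside the axes. Late round and elongating spermatid genes lie high in both genotypes, while pachytene genes reach lower in the wild type (median -1.41) than in the null (-0.71).

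The genes with the smallest interaction p-values missed the threshold (edgeR adjusted p = 0.684) and are given as values. Marcks, a membrane substrate of protein kinase C, had means of 2.81 CPM in null spermatocytes, 8.34 CPM in null round spermatids, 6.52 CPM in wild-type spermatocytes and 5.65 CPM in wild-type round spermatids. Chd5 had 458 and 723 CPM in null spermatocytes and round spermatids and 239.6 and 614 CPM in the wild type, so that its log2 fold change was 0.66 in the null and 1.36 in the wild type. Cdh23, a cadherin, had 50.4 and 48.6 CPM in the null fractions and 24.7 and 48.8 CPM in the wild-type fractions. Round spermatid levels of Chd5 and Cdh23 were close between genotypes, and their spermatocyte levels were further apart. Zdhhc2, Lrrc75b, Zfp146 and Arhgap18 had differences (null minus wild type) of 1.49, 2.60, 2.12 and 2.43 on the log2 scale, and Zfp629, Gm13496 and Gm17501 of -0.69, -2.97 and -3.08. The largest of these came from genes of low level. Group means spanned 0.422 to 1.25 CPM for Lrrc75b, 0.364 to 1.49 CPM for Gm13496 and 0.0927 to 0.524 CPM for Gm17501.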

How the data were processed

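The authors deposited a table of raw counts per gene, made from poly(A)-selected, strand-specific libraries. The submitters' processing notes name mm10, Trim Galore and STAR, and the study's methods give STAR's gene counting as the source. The versions, the annotation release and the strand column are not given in the sources used here. STAR counts only reads with a single alignment, so genes with near-identical copies lose reads or share them. Other genes share over 20% of the 31-base words of Gapdh, Cks2, Hormad1, Lyz2, Hbb-bs, Hspa1a and Stat4, so their values are uncertain. All 55536 identifiers matched GENCODE M21 (GRCm38), which gave symbols, coordinates and exon lengths.

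Counts were scaled by TMM and tested on the 7 null libraries by quasi-likelihood in edgeR 4.0.16 under R 4.3.3, with no covariate. A gene was tested with at least 10 counts in 3 libraries and called when its log2 fold change exceeded 0.5 in size and its adjusted p-value was below 0.05, limits taken from the study. DESeq2 1.42.0 was an alternative. The interaction used 14 libraries, without those labelled outliers. Levels are CPM of tested genes after TMM scaling, and levels per kb divide by the union of exons. Floors and depth cover counting error only, since reads carry no molecular identifiers. The steps were tested on simulated data. Pairs of libraries of a group differed by more than counting noise (chi-square per gene of 9.85 to 56.7). The labels number replicates without saying that they came from separate preparations, so p-values measure the spread between these libraries, which may be technical.

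Spermatocyte and round spermatid libraries of consecutive numbers deviated together from their group means (r = 0.254, 0.245 and 0.341 for SP rep1 with RS rep1, SP rep2 with RS rep3 and SP rep3 with RS rep4), so a fit with these pairs as blocks is given where it changes the call of a named gene or moves a count by over 1.5 times. RS rep2 has no partner. Pairing comes from the library numbers and not from a statement of shared animals. Genes named in the text were members of the gene lists, the 12 largest called changes in each direction among protein-coding genes of at least 20 CPM, the 10 highest levels per kb in each fraction, the 8 largest X-linked changes in each direction of at least 5 CPM, up to 5 genes in each direction of the smallest interaction p and the targeted genes, and cell type markers. The members and the gene lists were chosen with earlier results of these data known, and 144 of the named genes were called.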

Additional observations from a re-analysis of the deposited data

Results flagged for a closer look

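For 8 of 176 named genes, a null round spermatid library stood apart from the other 3 by Dixon's ratio of the gap to the range, past the 95% limit for 4 samples, and chance gives such a gap in about 1 of 20 groups. Rec8 had 174.3 CPM in RS rep2 against 152.2 to 152.8 CPM in the others (ratio 0.973). Brca2 had 40.95 CPM in RS rep4 against 31.99 to 32.42 CPM (0.952), and Pick1 18.87 CPM in RS rep4 against 17.5 to 17.72 CPM (0.833). RS rep1 was high for mt-Co1, with 5910 CPM against 3710 to 3830 CPM (0.946), and for Prm3, with 592 CPM against 352 to 392 CPM (0.833), and low for Chd5, with 549 CPM against 765.1 to 783.8 CPM (0.92). RS rep3 was high for the Sertoli markers Clu, with 274.7 CPM against 148.7 to 159 CPM (0.918), and Sox9, with 7.395 CPM against 2.665 to 3.265 CPM (0.873). No gene was called for a difference between the null and wild-type transitions.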

How the results depend on the processing

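The number of genes called between the null fractions ranged from 1612 to 4924 over fits that left out a library (1612 without SP rep3, 2211 without SP rep2, 2447 without RS rep2), and 2302 had an absolute log2 fold change above 1. Of the 3749 main calls, 42.9% remained without SP rep3, 54.8% without SP rep2 and 84.4% with library totals alone, where the median of all genes moved from -0.0322 to -0.261 and 5526 genes were called. The cause of these changes was not tested. DESeq2 called 4553 genes, a fit without a count filter 4711 and upper quartile scaling 3707. The replicate block gave 4730 calls by label number and 4293 by consecutive library number. The label numbers did not pair the libraries (r = 0.254, -0.134 and 0.0139), and the consecutive numbers did. With the consecutive block, the calls of 3 of 144 named genes were lost (Drosha, Hist1h2ba and Boll) and 5 became called (Ago3, Spo11, Atr, Piwil1 and Mybl1). The other named calls did not change with it. Of the 144 named calls, 66 were lost without SP rep3, 65 without SP rep2, 42 without RS rep2, 34 without RS rep1, 30 without RS rep3, 10 without SP rep1, 5 without RS rep4, 15 with library totals alone, 6 with upper quartile scaling and 5 with DESeq2, and none reversed in any fit run. The interaction called 0 genes under every alternative run, with 741 to 4105 genes at an unadjusted p under 0.05, against 1416 in the main fit. The number was 741 without SP rep3, 4105 without wild-type spermatocyte replicate 5 and 3924 with blocks by label number. It thus depended on single libraries, and the 0 calls do not show that the transitions are alike. The X-linked share kept its direction in all fits, at a difference of 0.31 to 0.488 percentage points over the omissions, where 3 against 3 or 2 against 4 libraries allow no p below 0.1 or 0.133. With 3 and 4 libraries, changes near a log2 size of 0.5 were often not separable from the spread.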
